A study of Mus musculus with 12 samples.

Results

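The genes described here are 32 genes of heat shock proteins, their cochaperones, the chaperonins and the heat shock factors, taken by gene symbol from the 56691 genes of the deposited tables. All 32 symbols were found in both tables. By role they are 6 genes of the Hsp70 and Hsp110 families, 2 of Hsp90, 5 Hsp90 cochaperones, 2 small heat shock proteins with their partner Bag3, 3 J proteins, 3 chaperones of mitochondria, 8 subunits of the cytosolic chaperonin TRiC and 2 heat shock factors. They were kept apart as 12 heat-inducible genes, 18 constitutive genes and the 2 factors. These classes were assigned gene by gene and were not measured in these libraries. The working name of the set speaks of the cytosol, but 3 of its proteins act in the mitochondrial matrix.

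The libraries are mRNA-seq of cultured EMT6 and 4T1 cells, 2 mouse mammary tumour lines. The 4 groups were EMT6 Nedd4 KO cells (labelled sgNEDD4), EMT6 control cells (WT), 4T1 Nedd4 KO cells (sgNEDD4) and 4T1 control cells (WT), with 3 libraries each. Nedd4 encodes a ubiquitin ligase, and sg is the usual notation for a guide RNA. All groups grew in DMEM with fetal bovine serum and carry the same batch label. The sources used here do not give the position of the guide, whether a KO line is 1 clone or a pool, or whether libraries came from separate cultures. The p-values therefore measure only the spread between these libraries. The comparisons ask how these genes differ between KO and control cells of each line, and whether the lines differ in that response.

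Chaperones of the Hsp70 and Hsp90 families bind proteins that are not fully folded, in cycles of ATP hydrolysis that cochaperones speed up, slow down or direct. TRiC and the mitochondrial chaperonin enclose their substrates in a chamber, and actin and tubulin are the classic substrates of TRiC. On heat or other stress to proteins, the transcription factor HSF1 forms trimers and binds heat shock elements, runs of inverted nGAAn units, in front of the inducible genes. Many tumour cells depend on a high level of these proteins.

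The stretches at the starts of 8 of these genes are shown in 7 sequences because they bear such units and because the genes differed in their changes. Start windows of 300 bases, 250 before a gene's start and 50 after it, came from RefSeq (GRCm38.p6) and were found for 26 of the 32 genes. They were searched on both strands for 3 units (GAANNTTCNNGAA or TTCNNGAANNTTC) and for 2 units (GAANNTTC or TTCNNGAA), and each match to 3 units also holds matches to 2 units. Capitals mark the matches, to 3 units in the first 3 sequences and to 2 units in the other 4. The first lies between a start of Hspd1 and the start of Hspe1, which point away from each other (chr1:55087933-55088147, plus strand). The next are Chordc1 (chr9:18292167-18292286, plus strand, ending 20 bases after the start) and Hsph1 (chr5:149636279-149636308, minus strand, after the start). Those of Hspa1b (chr17:34959239-34959438, minus strand), Hspa1a (chr17:34972157-34972356, minus strand), Dnaja1 (chr4:40722318-40722467, plus strand) and Hspb1 (chr5:135887769-135887918, plus strand) end at the base before the start. For Dnaja1 this is the most upstream of several starts.
Hspd1 to Hspe1: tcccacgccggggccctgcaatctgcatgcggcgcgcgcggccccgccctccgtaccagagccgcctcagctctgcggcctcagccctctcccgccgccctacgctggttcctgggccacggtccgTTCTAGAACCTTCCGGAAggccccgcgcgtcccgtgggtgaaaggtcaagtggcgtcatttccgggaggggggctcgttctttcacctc
Chordc1: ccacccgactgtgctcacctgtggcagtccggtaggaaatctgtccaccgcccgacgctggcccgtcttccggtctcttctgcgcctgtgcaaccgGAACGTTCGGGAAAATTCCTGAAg
Hsph1: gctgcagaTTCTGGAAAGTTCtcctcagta
Hspa1b: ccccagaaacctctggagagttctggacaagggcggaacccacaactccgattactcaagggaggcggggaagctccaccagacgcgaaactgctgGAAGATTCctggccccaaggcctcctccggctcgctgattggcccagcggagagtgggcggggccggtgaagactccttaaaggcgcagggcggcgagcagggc
Hspa1a: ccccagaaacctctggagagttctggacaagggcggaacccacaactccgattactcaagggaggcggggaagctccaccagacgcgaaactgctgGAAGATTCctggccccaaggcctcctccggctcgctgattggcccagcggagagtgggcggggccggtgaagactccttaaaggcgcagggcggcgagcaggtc
Dnaja1: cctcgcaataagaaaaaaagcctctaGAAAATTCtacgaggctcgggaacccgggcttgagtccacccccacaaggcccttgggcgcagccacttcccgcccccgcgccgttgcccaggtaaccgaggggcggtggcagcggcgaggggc
Hspb1: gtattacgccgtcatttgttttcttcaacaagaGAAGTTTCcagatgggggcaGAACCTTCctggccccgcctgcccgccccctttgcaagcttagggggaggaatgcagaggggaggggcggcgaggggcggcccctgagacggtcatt

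A match to 3 units stood in the windows of 4 of 26 genes (15.4%), namely Chordc1, Hsph1, Hspd1 and Hspe1, against 179 of 27025 genes of the RefSeq table (0.662%). A match to 2 units stood in 15 of 26 (57.7%), against 17.0% of all genes. Of the heat-inducible genes 9 of 11 windows held 2 units (81.8%), of the constitutive genes 6 of 14 (42.9%), and of the TRiC subunits 3 of 7. The classes do not divide by these matches. Hspd1 and Hspe1, with 3 units, were placed in the constitutive class, and the windows of the inducible Hspa4l and Dnajb1 held 0 matches. The Hspe1 start and the Hspd1 start used here lie 215 bases apart and share 1 run of units. A further Hspd1 window (chr1:55088194-55088493) held 0 matches, as did the further windows of Dnaja1 (chr4:40722672-40722971 and chr4:40722680-40722979). The 200 bases before Hspa1b and Hspa1a are the same at 199 positions. These matches describe letters, not measured binding of a factor.

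The libraries held 13705612 to 19761604 counts, so that 3 counts correspond to 0.152 to 0.219 CPM. Such limits cover counting error only. Nedd4, the targeted gene, stood at 12.1, 11.5 and 12.1 FPKM in EMT6 KO libraries, against 122, 121 and 116 FPKM in EMT6 control libraries. 4T1 KO libraries held 24.7, 24.9 and 25.3 FPKM, against 94.4, 97.6 and 93.5 FPKM in 4T1 control libraries, so that every KO library was below every control library in both lines. More genes had a count in 4T1 KO libraries (20937 to 21264) than in 4T1 control libraries (18836 to 19017), against 18119 to 18371 in EMT6 KO and 18014 to 18833 in EMT6 control libraries. The 6 epithelial and mammary carcinoma markers summed to 378.5 to 392.3 FPKM in EMT6 KO and 351 to 417 FPKM in EMT6 control libraries, nearly all of it Krt8 and Krt18. In EMT6, Cdh1 was at most 0.02 FPKM and Epcam 0.21 to 0.52 FPKM in KO and 1.15 to 1.25 FPKM in control libraries, while Krt8 was 343 to 361 FPKM in KO and 273 to 331 FPKM in control libraries. By edgeR, 1 of 5 tested was called higher (Krt8) and 4 lower, with Krt18 at 42.6% and Krt7 at 25.3% of their mean control level. In 4T1 the 6 summed to 1376 to 1454 FPKM in KO and 1893 to 1972 FPKM in control libraries, and 3 of 6 were called lower, with Epcam at 48.3%, Krt8 at 61.0% and Krt18 at 78.6% of their mean control level, while Cdh1 stood at 140 to 147 FPKM in KO and 135 to 138 FPKM in control libraries. The 4 mesenchymal markers summed to 1185 to 1262 FPKM in EMT6 KO and 796 to 850.5 FPKM in EMT6 control libraries, with Fn1 at 170.2% and Vim at 137% of their mean control level. By edgeR 2 of 3 tested were called higher in EMT6, and the other was not called (log2 change -0.18). They summed to 951 to 959 FPKM in 4T1 KO and 892 to 978 FPKM in 4T1 control libraries. There 1 of 2 tested was called higher (0.12) and 1 lower (-0.28). The 8 leukocyte markers summed to 16.2 to 18.1 FPKM in EMT6 KO and 28.6 to 34.3 FPKM in EMT6 control libraries. Ptprc, Itgam, Adgre1 and Cd3e were at 0 in all of these. By edgeR 1 of 3 tested was called higher and 2 lower in EMT6 (log2 changes -1.38 to 1.02). In 4T1 the 8 summed to 26.3 to 29.3 FPKM in KO and 24.1 to 26.6 FPKM in control libraries. Cd3e was at 0 there and Ptprc at most 0.07 FPKM. Of 4 tested in 4T1, 1 was called higher and 1 lower (-0.76 to 0.61). The KO effect in EMT6 minus that in 4T1 was -2.02 for Cd68, 0.44 for Cd14 and 1.57 for Csf1r, each called. The 8 endothelial and fibroblast markers summed to 204.8 to 237.3 FPKM in EMT6 KO and 159.2 to 180.7 FPKM in EMT6 control libraries, mostly Col1a1, with Kdr at 0 and Pdgfrb at 9.62 to 9.94 FPKM in KO and 0.68 to 1.17 FPKM in control libraries. In 4T1 they summed to 25.7 to 29.0 FPKM in KO and 24.5 to 26.7 FPKM in control libraries, with Pdgfrb at 0. By edgeR 2 of 4 tested were called higher and 1 lower in EMT6, and 0 of 4 were called in 4T1. The part of these differences in the results was not tested.

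In EMT6 KO cells the heat-inducible genes moved apart from each other and TRiC leaned lower. Hspa1b, the stress-inducible Hsp70, was at 299% of its mean control level, Dnaja1 and Bag3 rose, and Hspb1, the small heat shock protein Hsp25, was at 51.2% of its mean control level. In 4T1 KO cells most of the constitutive genes fell, by at most 0.52 on the log2 scale, while Hspa4l rose. Of 31 tested genes in EMT6, 6 were called higher and 11 lower at an adjusted p under 0.05, where 27.9% of all tested genes were called higher and 28.2% lower (56.0% in all). Of 30 tested genes in 4T1, 3 were called higher and 19 lower, where 28.0% of all tested genes were called higher and 29.0% lower (57.0% in all). The share called in 4T1 therefore lay above the background for lower genes and below it for higher genes, while that in EMT6 lay closer to it on both sides. The median log2 change was -0.02 over the EMT6 members and -0.17 over the 4T1 members, against 0.00 over all genes of each line.

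By class, 5 of 11 tested heat-inducible genes were called higher and 2 lower in EMT6 (median 0.20), and 1 higher and 4 lower of 10 in 4T1 (median -0.01). Of 18 constitutive genes, 1 was called higher and 8 lower in EMT6 (median -0.04), and 0 higher and 15 lower in 4T1 by edgeR (median -0.24). The edgeR test without adjustment, at p under 0.05, called 0 constitutive genes higher in 4T1, and DESeq2 called 0. Of the genes, 7 were called lower in both lines (Hspa4, Chordc1, Hspd1, Hspa9, Tcp1, Cct5 and Cct8), 1 higher in both (Hspa4l) and 3 in opposite directions (Dnaja1, Ahsa1 and Hsf1). Of the 12006 genes tested in both lines, 7.85% were called lower in both, 7.05% higher in both and 19.6% in opposite directions. The FPKM ranges of KO and control were apart for 8 members that stood higher and 11 lower in EMT6, where they were apart for 62.3% of all tested genes (31.2% higher and 31.1% lower). In 4T1 they were apart for 7 members higher and 17 lower, against 61.6% of all tested genes (37.3% higher and 24.3% lower). FPKM are scaled by total counts. With that scaling in the 4T1 fit the median of all genes moved up by 0.08, 61.2% of called genes were higher in place of 49.1%, and the counts among members became 6 higher with 1 of them constitutive and 14 lower with 10 of them constitutive.

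**Figure D1:**
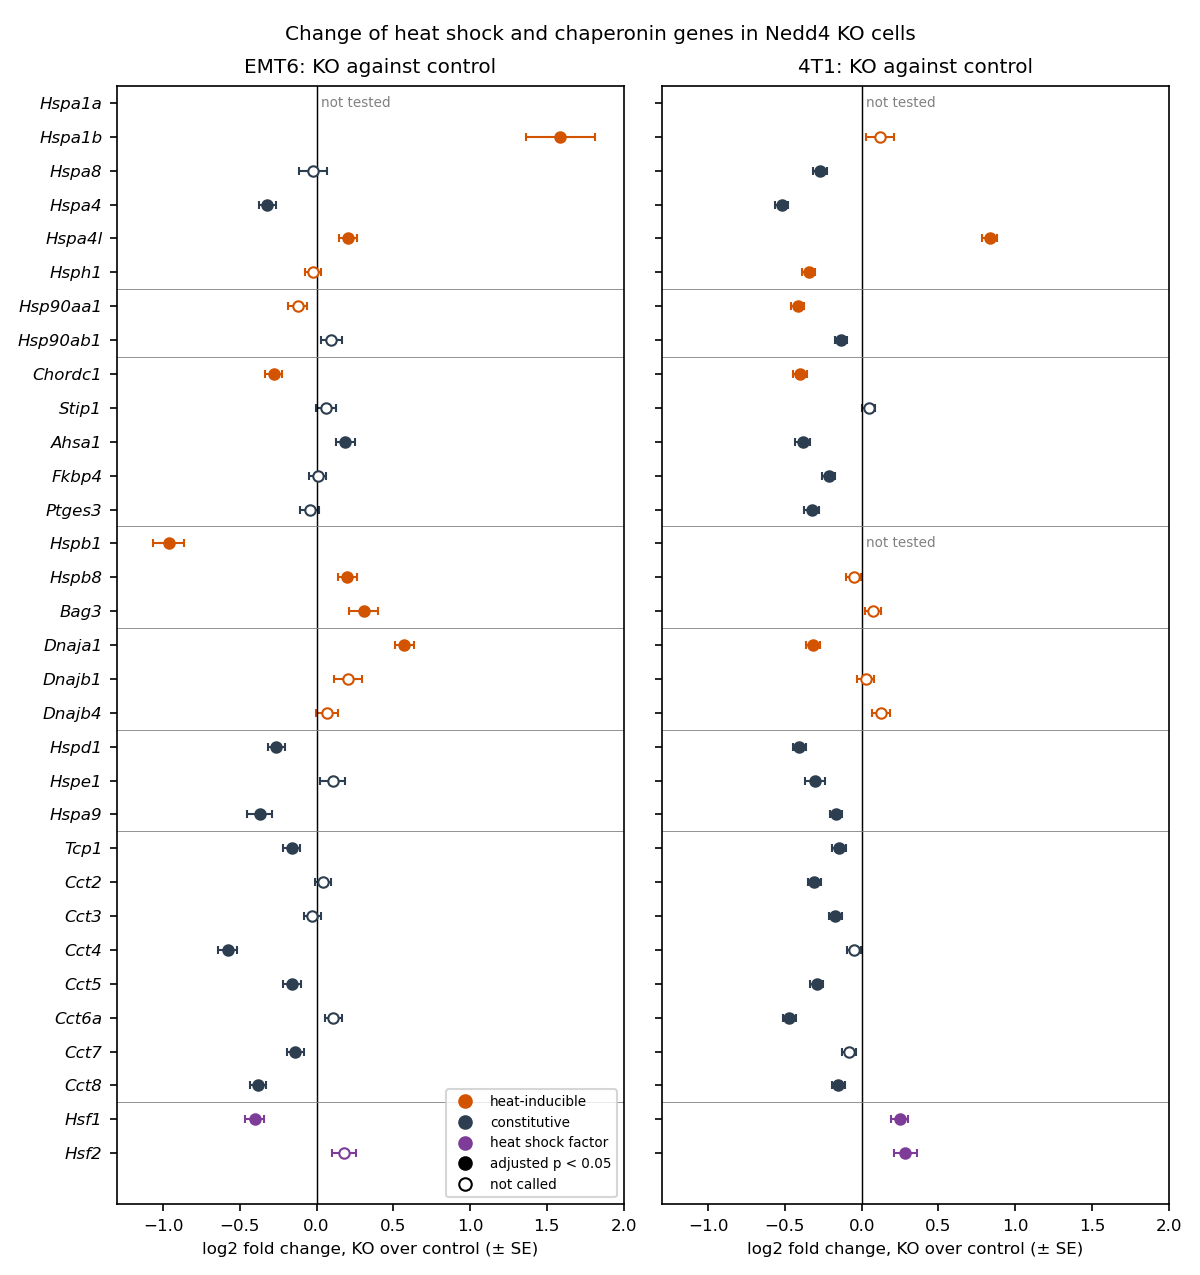
Log2 fold change of KO over control (x axis) with its standard error for each gene, in EMT6 on the left and 4T1 on the right, grouped by role with a line between roles. Filled points are called at an adjusted p under 0.05. Hspa1b at 1.59 and Hspb1 at -0.96 stand farthest from 0 in EMT6, and Hspa4l at 0.83 in 4T1, where most constitutive genes lie left of 0.

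Among the Hsp70 genes, the inducible Hspa1b and the constitutive Hspa8 differed in EMT6. Hspa1b (ENSMUSG00000090877) stood at 30.0, 31.4 and 35.6 FPKM in EMT6 KO libraries, against 11.7, 13.3 and 7.38 FPKM in EMT6 control libraries. Every KO library was far above every control, and control replicate 3 was the lowest. The log2 change was 1.59 ± 0.23 (SE, quasi-likelihood test of edgeR, Benjamini-Hochberg adjusted p = 0.00218) and 1.36 without that control. In 4T1 Hspa1b stood at 9.08, 7.72 and 8.41 FPKM in 4T1 KO libraries, against 7.84, 7.29 and 6.82 FPKM in 4T1 control libraries, so that the groups overlapped, and it was not called (0.12 ± 0.09, edgeR, adjusted p = 0.267). The KO effect was larger in EMT6 than in 4T1 by 1.45 ± 0.27 (edgeR, adjusted p = 0.000872). Hspa1a, the neighbouring copy, had 0 to 2 counts per EMT6 KO library and 0 to 4 per EMT6 control library, and 1 to 3 per 4T1 KO library and 0 to 4 per 4T1 control library, and was not tested. Of all words of 50 bases in Hspa1b transcripts (GENCODE M21), 62.3% also occur in Hspa1a, and how reads matching both were counted is not given, so the values of Hspa1b stand for either copy. With the counts of both summed, each call of Hspa1b was the same.

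Hspa8 (Hsc70), the constitutive Hsp70, stood at 197, 185 and 184 FPKM in EMT6 KO libraries, against 191, 219 and 165 FPKM in EMT6 control libraries. The control libraries spanned all KO libraries, and Hspa8 was not called in EMT6 (-0.02 ± 0.09, edgeR, adjusted p = 0.844). For 4T1 the values were 252, 239 and 259 FPKM in 4T1 KO libraries, against 302, 272 and 284 FPKM in 4T1 control libraries, lower in every KO library (log2 change -0.27 ± 0.04, edgeR, adjusted p = 1.12e-05). Between the lines the difference was 0.23 ± 0.11 and was not called (edgeR, adjusted p = 0.0807), but it was called without EMT6 control replicate 2 (0.35) and with no low-count filter (0.27). Of its 50-base words, 38.6% occur in other genes, and the copy with the most, Gm15459, itself held 12880 to 20379 counts per library, so the level of Hspa8 is uncertain.

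The 3 Hsp110 proteins release ADP from Hsp70 so that its cycle can go on. Hspa4, the constitutive one, stood at 74.4, 70.6 and 69.3 FPKM in EMT6 KO libraries, against 88.2, 91.5 and 88.5 FPKM in EMT6 control libraries. The corresponding values in 4T1 were 88.0, 85.1 and 88.1 FPKM in 4T1 KO libraries, against 118, 117 and 121 FPKM in 4T1 control libraries. No KO library reached a control in either line, and Hspa4 fell in both, with log2 changes of -0.32 ± 0.05 in EMT6 (edgeR, adjusted p = 9.7e-05) and -0.52 ± 0.04 in 4T1 (edgeR, adjusted p = 1.43e-10). The difference of 0.18 ± 0.06 (edgeR, adjusted p = 0.0187) was not called without EMT6 KO replicate 1 (0.15), without 4T1 KO replicate 2 (0.16) or with total-count scaling (0.12).

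Hspa4l (ENSMUSG00000025757), the heat-inducible relative of Hspa4, went the other way. It stood at 17.0, 16.6 and 17.9 FPKM in EMT6 KO libraries, against 14.8, 13.7 and 16.2 FPKM in EMT6 control libraries and was called higher with a small change of 0.20 ± 0.06 (edgeR, adjusted p = 0.00908). The 4T1 levels were 30.9, 31.2 and 34.4 FPKM in 4T1 KO libraries, against 16.9, 17.8 and 16.6 FPKM in 4T1 control libraries, with a wide gap between the groups (log2 change 0.83 ± 0.05, edgeR, adjusted p = 6.99e-13). The effect in EMT6 was smaller than in 4T1 by -0.65 ± 0.08 (edgeR, adjusted p = 3.37e-07). Hsph1 (Hsp105), also inducible, stood at 59.0, 58.0 and 59.9 FPKM in EMT6 KO libraries, against 59.7, 61.2 and 59.3 FPKM in EMT6 control libraries, with overlapping groups and no call (-0.03 ± 0.05, edgeR, adjusted p = 0.699). In 4T1 it stood at 23.1, 22.5 and 22.8 FPKM in 4T1 KO libraries, against 26.8, 27.6 and 27.9 FPKM in 4T1 control libraries, and fell (log2 change -0.35 ± 0.04, edgeR, adjusted p = 4.44e-07). The difference was 0.30 ± 0.06 (edgeR, adjusted p = 0.000243). Within the Hsp110 family in 4T1, then, Hspa4l was higher while Hspa4 and Hsph1 were lower.

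**Figure D2:**
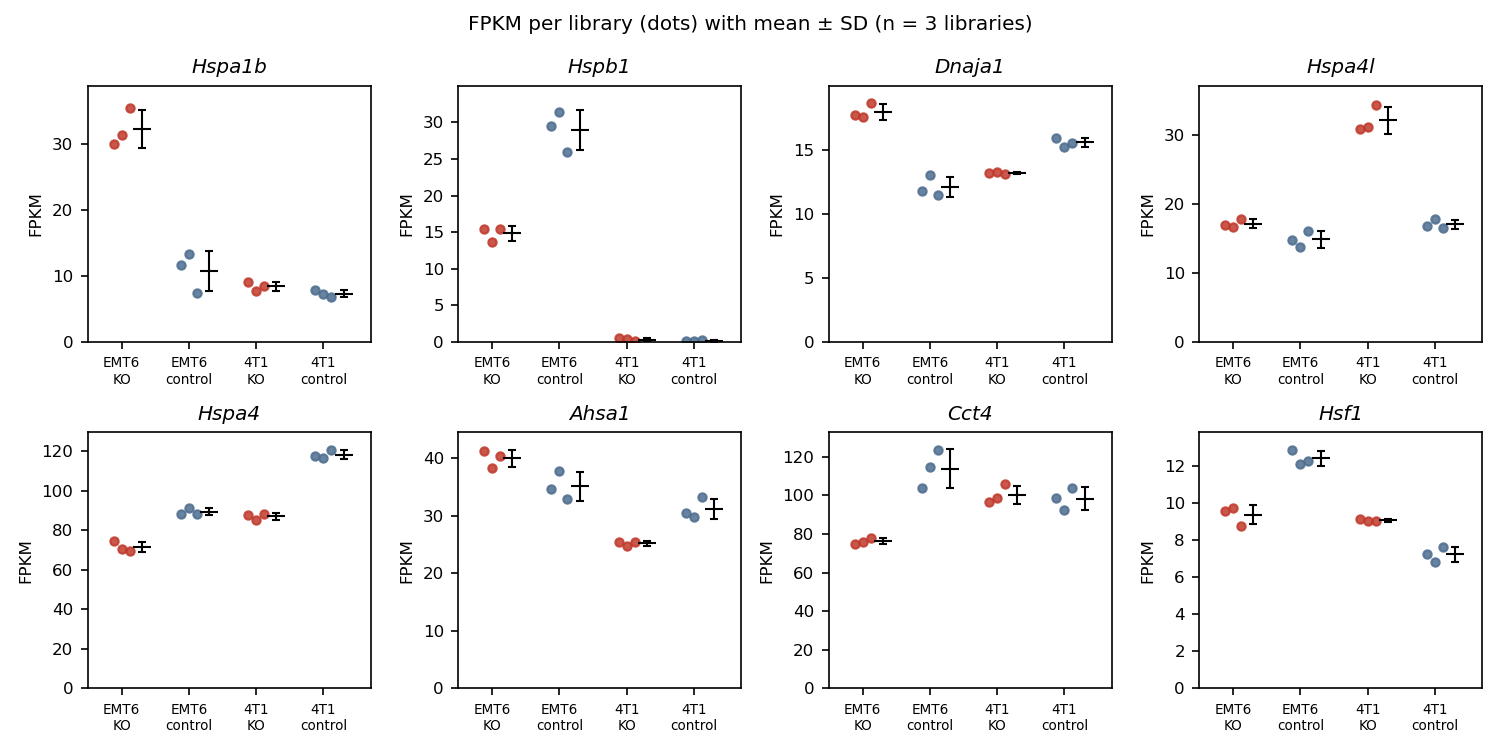
FPKM (y axis, starting at 0) of 8 genes in each library (dots, KO in red and control in blue) with the mean and SD of 3 libraries beside them, for EMT6 and then 4T1. Hspa1b and Dnaja1 are higher in every EMT6 KO library and Hspb1 and Cct4 lower, Hspa4l is highest in 4T1 KO libraries, and Dnaja1, Ahsa1 and Hsf1 go in opposite directions in the lines.

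Of the 2 cytosolic Hsp90 genes, Hsp90ab1, the constitutive form, was the most abundant gene of the set in all 4 groups. It stood at 1603, 1561 and 1609 FPKM in EMT6 KO libraries, against 1469.8, 1608 and 1389 FPKM in EMT6 control libraries, and was not called (0.10 ± 0.07, edgeR, adjusted p = 0.227). It ranked 7 of 56691 genes by mean FPKM in EMT6 KO libraries and 8 in EMT6 control libraries, and 10 in 4T1 KO and 8 in 4T1 control libraries. In 4T1 it stood at 1717, 1656 and 1706 FPKM in 4T1 KO libraries, against 1781, 1711 and 1789.6 FPKM in 4T1 control libraries. These groups overlapped and the change was small (-0.13 ± 0.04, edgeR, adjusted p = 0.00552), and it was not called without KO replicate 2 (-0.12) or with total-count scaling (-0.06). In EMT6 it was called higher without control replicate 2 (0.16). The difference between the lines was 0.21 ± 0.08 (edgeR, adjusted p = 0.0203), not called without 4T1 KO replicate 2 (0.20) or with total-count scaling (0.15).

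Hsp90aa1, the inducible form, stood at 304, 290.5 and 288 FPKM in EMT6 KO libraries, against 294, 336 and 333 FPKM in EMT6 control libraries. It was not called in EMT6 (-0.12 ± 0.06, edgeR, adjusted p = 0.11), but was called lower without control replicate 1 (-0.19). 4T1 KO libraries held 393, 369 and 376 FPKM, against 489, 479 and 472 FPKM in 4T1 control libraries, with every KO library below every control (log2 change -0.42 ± 0.04, edgeR, adjusted p = 1.11e-08). The difference was 0.27 ± 0.08 (edgeR, adjusted p = 0.00374). Of its 50-base words, 47.5% occur in other genes, most of them in Gm12346, which held 405 to 604 counts per library.

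Ratios of partner genes within a library do not depend on library scaling, and with 3 against 3 libraries the exact permutation test cannot go below p = 0.1. The FPKM ratio of Hsp90aa1 to Hsp90ab1 was 0.185 ± 0.00565 in EMT6 KO and 0.216 ± 0.0208 in EMT6 control libraries (SD, n = 3, exact 2-sided permutation p = 0.1). In 4T1 it was 0.224 ± 0.00427 in KO and 0.273 ± 0.00847 in control libraries (n = 3, exact permutation p = 0.1). In both lines every KO library held less of the inducible form per constitutive form than every control. The ratio of Hspa1a plus Hspa1b to Hspa8 was 0.172 ± 0.0203 in EMT6 KO and 0.0557 ± 0.00956 in EMT6 control libraries, and 0.0338 ± 0.00205 in 4T1 KO and 0.0257 ± 0.00146 in 4T1 control libraries (SD, n = 3, exact permutation p = 0.1 in each line). Every KO library was above every control in both lines. In 4T1 the numerator was not called and Hspa8 was called lower.

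**Figure D3:**
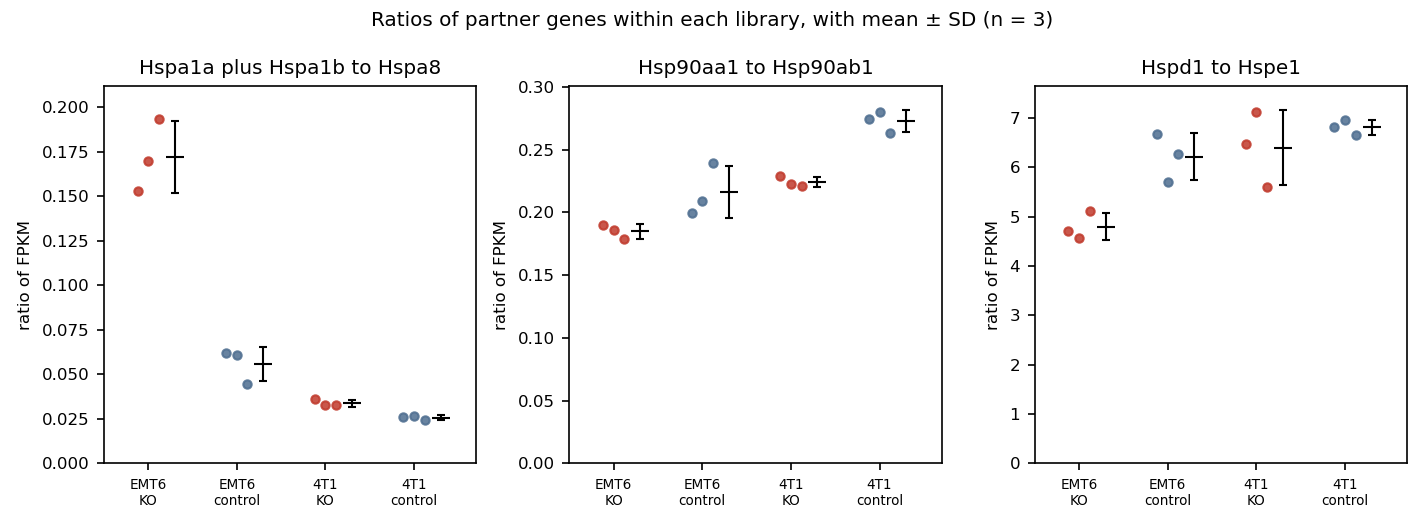
Ratio of FPKM of partner genes within each library (dots, KO in red and control in blue, y axes from 0) with the mean and SD of 3 libraries, for EMT6 and then 4T1. The inducible to constitutive Hsp70 ratio is 0.172 on average in EMT6 KO and 0.0557 in EMT6 control libraries, and the Hsp90aa1 to Hsp90ab1 ratio is lower in KO than in control libraries of both lines.

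The Hsp90 cochaperones were mixed in EMT6 and mostly lower in 4T1, where 4 of 5 were called. Ahsa1 (AHA1), which speeds up the ATPase of Hsp90, stood at 41.3, 38.3 and 40.5 FPKM in EMT6 KO libraries, against 34.7, 37.9 and 32.9 FPKM in EMT6 control libraries. The EMT6 groups did not overlap, though KO replicate 2 was within 1 FPKM of control replicate 2. It was called higher (0.19 ± 0.06, edgeR, adjusted p = 0.0182), a call lost without control replicate 1 (0.17), control replicate 3 (0.13), KO replicate 1 (0.16) or KO replicate 3 (0.19). In 4T1 Ahsa1 stood at 25.5, 24.8 and 25.5 FPKM in 4T1 KO libraries, against 30.6, 29.9 and 33.3 FPKM in 4T1 control libraries, and was called lower (-0.38 ± 0.05, edgeR, adjusted p = 3.63e-07). Between the lines the difference was 0.55 ± 0.08 (edgeR, adjusted p = 2.73e-06) and was called under each alternative run.

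Fkbp4 (FKBP52), a peptidyl-prolyl isomerase of steroid receptor complexes, stood at 132, 128 and 126 FPKM in EMT6 KO libraries, against 122, 132 and 129.6 FPKM in EMT6 control libraries and was not called (0.01 ± 0.05, edgeR, adjusted p = 0.926). For 4T1 the values were 91.9, 95.9 and 98.1 FPKM in 4T1 KO libraries, against 107, 102 and 105 FPKM in 4T1 control libraries, lower in each KO library (-0.21 ± 0.04, edgeR, adjusted p = 0.000133). Its difference between the lines was 0.20 ± 0.06 (edgeR, adjusted p = 0.0105), and it was not called with total-count scaling (0.14). Ptges3 (p23), which holds Hsp90 in its closed form, stood at 89.2, 83.5 and 81.2 FPKM in EMT6 KO libraries, against 82.0, 89.9 and 90.4 FPKM in EMT6 control libraries, with overlapping groups and no call (-0.05 ± 0.06, edgeR, adjusted p = 0.549). The corresponding values in 4T1 were 74.3, 76.8 and 77.7 FPKM in 4T1 KO libraries, against 88.4, 86.6 and 96.9 FPKM in 4T1 control libraries (-0.33 ± 0.05, edgeR, adjusted p = 2.08e-06), with a difference between the lines of 0.26 ± 0.07 (edgeR, adjusted p = 0.00452). Of its 50-base words 19.6% occur in other genes, most of them in Ptges3-ps, so the level of Ptges3 is uncertain. Ptges3-ps held 1353 to 2408 counts per library, and Ptges3 itself 2600 to 3847.

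Chordc1, a Hsp90-binding protein whose start holds the run of units shown above, fell alike in both lines. It stood at 14.4, 14.2 and 13.4 FPKM in EMT6 KO libraries, against 16.9, 16.9 and 17.3 FPKM in EMT6 control libraries and at 14.4, 13.6 and 13.9 FPKM in 4T1 KO libraries, against 17.4, 17.7 and 17.4 FPKM in 4T1 control libraries. No KO library reached a control in either line. The log2 change was -0.28 ± 0.06 in EMT6 (edgeR, adjusted p = 0.000436) and -0.40 ± 0.05 in 4T1 (edgeR, adjusted p = 1.4e-07). The difference of 0.10 ± 0.07 was not called (edgeR, adjusted p = 0.214). Stip1 (HOP), which joins Hsp70 to Hsp90, was not called, with 0.06 ± 0.06 in EMT6 and 0.05 ± 0.04 in 4T1, where the KO libraries held 235 to 252 FPKM and the controls 222 to 226 FPKM. With total-count scaling it was called higher in 4T1 (0.13).

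Hspb1 (ENSMUSG00000004951), the small heat shock protein that binds unfolding proteins without ATP, had the largest decrease of the set in EMT6. It stood at 15.5, 13.6 and 15.4 FPKM in EMT6 KO libraries, against 29.6, 31.4 and 26.0 FPKM in EMT6 control libraries. All KO libraries stood far below all controls (log2 change -0.96 ± 0.10, edgeR, adjusted p = 4.69e-07). Its lowest count was 250 per EMT6 KO library and 436 per EMT6 control library, which sets the precision. In 4T1 it was nearly absent, at 1 to 8 counts per KO library and 1 to 3 per control library, below the filter on low counts, and was not tested. Of its 50-base words 48.8% occur in another gene, the pseudogene Hsp25-ps1, which held 2 to 8 counts in EMT6 KO and 4 to 12 in EMT6 control libraries.

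Hspb8 and Bag3 act as a pair that hands damaged proteins to autophagy, and both rose in EMT6. Hspb8 stood at 88.4, 82.7 and 82.7 FPKM in EMT6 KO libraries, against 68.3, 78.4 and 74.4 FPKM in EMT6 control libraries, and was called higher (0.20 ± 0.06, edgeR, adjusted p = 0.0125), though not without control replicate 1 (0.14) or KO replicate 1 (0.17). Bag3 stood at 37.7, 37.8 and 40.6 FPKM in EMT6 KO libraries, against 34.0, 34.0 and 26.1 FPKM in EMT6 control libraries, with control replicate 3 the lowest. It was called higher (0.31 ± 0.09, edgeR, adjusted p = 0.014), but not without KO replicate 3 (0.28), and was 0.18 without control replicate 3, where it was still called. In 4T1 Hspb8 stood at 68.2, 63.1 and 67.9 FPKM in 4T1 KO libraries, against 66.6, 61.0 and 68.2 FPKM in 4T1 control libraries, and Bag3 at 38.8, 36.4 and 34.4 FPKM in 4T1 KO libraries, against 33.4, 32.2 and 33.1 FPKM in 4T1 control libraries. Neither was called in 4T1 (-0.05 ± 0.05 for Hspb8 and 0.07 ± 0.05 for Bag3), the sign of Hspb8 turned with total-count scaling (0.03), and Bag3 was called higher with it (0.15). The difference between the lines was 0.23 ± 0.08 for Hspb8 (edgeR, adjusted p = 0.0163), not called without EMT6 control replicate 1 (0.18) or 4T1 KO replicate 2 (0.20), or with total-count scaling (0.17). For Bag3 it was 0.21 ± 0.12 and not called (edgeR, adjusted p = 0.118), though it was called without EMT6 control replicate 2 (0.29) and with no low-count filter (0.26).

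Among the J proteins, which bring substrates to Hsp70 and start its ATP hydrolysis, Dnaja1 (ENSMUSG00000028410) went in opposite directions. It stood at 17.7, 17.5 and 18.6 FPKM in EMT6 KO libraries, against 11.8, 13.0 and 11.4 FPKM in EMT6 control libraries, with every KO library above every control (log2 change 0.57 ± 0.06, edgeR, adjusted p = 9.32e-07). The 4T1 levels were 13.2, 13.2 and 13.1 FPKM in 4T1 KO libraries, against 15.9, 15.2 and 15.6 FPKM in 4T1 control libraries, with every KO library below every control (-0.32 ± 0.05, edgeR, adjusted p = 2.22e-06). The difference of 0.87 ± 0.07 (edgeR, adjusted p = 1.09e-09) had the lowest adjusted p of the set. Dnaja1 overlaps Smu1 on the other strand by 608 bases, and without a stated strand setting reads there cannot be told apart.

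Dnajb1 (Hsp40), a classic heat shock gene, stood at 24.3, 25.1 and 27.9 FPKM in EMT6 KO libraries, against 20.2, 25.6 and 21.1 FPKM in EMT6 control libraries, and was not called (0.20 ± 0.09, edgeR, adjusted p = 0.0694) but was called higher without control replicate 2, the highest control (0.33), and with no low-count filter (0.24). In 4T1 it stood at 21.2, 20.6 and 19.8 FPKM in 4T1 KO libraries, against 19.5, 18.2 and 19.6 FPKM in 4T1 control libraries and was not called (0.03 ± 0.06, edgeR, adjusted p = 0.717). The difference of 0.16 ± 0.11 was not called (edgeR, adjusted p = 0.207), except without EMT6 control replicate 2 (0.28). Dnajb4 was not called in EMT6 (0.07 ± 0.07) or in 4T1 (0.13 ± 0.06), and was called higher in 4T1 without control replicate 3 (0.15) and with total-count scaling (0.21). Of the 9 inducible genes with 2 units in their start windows, Hspa1b, Dnaja1, Bag3 and Hspb8 were called higher in EMT6. Hspb1 and Chordc1 were called lower there, Hsph1 and Dnajb4 were not called, and Hspa1a was not tested. Hspa4l, also called higher in EMT6, and Dnajb1 had windows with 0 matches.

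The chaperones of mitochondria were lower in sum in KO cells of both lines. The 3 genes summed to 549 to 595 FPKM in EMT6 KO and 664 to 784 FPKM in EMT6 control libraries, and to 409 to 417 FPKM in 4T1 KO and 474 to 495 FPKM in 4T1 control libraries. Hspd1 (Hsp60), the ring of the mitochondrial chaperonin, stood at 238, 231 and 227 FPKM in EMT6 KO libraries, against 266, 277 and 292 FPKM in EMT6 control libraries. 4T1 KO libraries held 225, 225 and 211 FPKM, against 276, 269.8 and 283 FPKM in 4T1 control libraries. It fell in both lines, with a log2 change of -0.26 ± 0.06 in EMT6 (edgeR, adjusted p = 0.000799) and -0.41 ± 0.04 in 4T1 (edgeR, adjusted p = 2.22e-08), and 39.7% of its 50-base words occur in other genes. The difference of 0.12 ± 0.07 was not called (edgeR, adjusted p = 0.126), except without EMT6 control replicate 3 (0.16).

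Hspe1 (Hsp10), the lid of the same chaperonin, starts from the same stretch shown above but was not called in EMT6. It stood at 50.5, 50.4 and 44.4 FPKM in EMT6 KO libraries, against 39.8, 48.5 and 46.6 FPKM in EMT6 control libraries, with overlapping groups (0.11 ± 0.08, edgeR, adjusted p = 0.282). For 4T1 the values were 34.8, 31.6 and 37.6 FPKM in 4T1 KO libraries, against 40.4, 38.8 and 42.5 FPKM in 4T1 control libraries, lower in each KO library (-0.30 ± 0.06, edgeR, adjusted p = 0.000215). Between the lines the difference was 0.39 ± 0.11 (edgeR, adjusted p = 0.00344). The ratio of Hspd1 to Hspe1 was 4.80 ± 0.277 in EMT6 KO and 6.22 ± 0.483 in EMT6 control libraries (SD, n = 3, exact permutation p = 0.1), without overlap. In 4T1 it was 6.40 ± 0.758 in KO and 6.81 ± 0.151 in control libraries (n = 3, exact permutation p = 0.5). Of the 50-base words of Hspe1, 18.4% occur in other genes, so its level and this ratio are uncertain. By the gene coordinates of the deposited tables, which are not those of the RefSeq windows, the 2 genes overlap by 112 bases on opposite strands.

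Hspa9 (mortalin), the Hsp70 that pulls proteins into the matrix, stood at 307, 314 and 278 FPKM in EMT6 KO libraries, against 359, 359 and 445 FPKM in EMT6 control libraries. Control replicate 3 was well above the other EMT6 libraries, and the log2 change was -0.37 ± 0.08 (edgeR, adjusted p = 0.00146) and -0.27 without it. In 4T1 Hspa9 stood at 157, 161 and 161 FPKM in 4T1 KO libraries, against 172, 166 and 169.9 FPKM in 4T1 control libraries, a smaller change of -0.17 ± 0.04 (edgeR, adjusted p = 0.00109) that was not called with total-count scaling (-0.09). The difference of -0.22 ± 0.09 (edgeR, adjusted p = 0.0408) was lost on leaving out any 1 of the 4T1 libraries (-0.23 to -0.22), EMT6 KO replicate 1 (-0.24), EMT6 KO replicate 3 (-0.16) or EMT6 control replicate 3 (-0.11).

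TRiC is built of 8 different subunits, each encoded by 1 gene of the set. In sum they stood at 1068 to 1089 FPKM in EMT6 KO and 1129 to 1208 FPKM in EMT6 control libraries, and at 1078 to 1129 FPKM in 4T1 KO and 1185 to 1281 FPKM in 4T1 control libraries, below every control in each line. In bulk samples, fewer cells of a type and less RNA per cell cannot be told apart. Of the 8 subunits 5 were called lower in EMT6 and 6 in 4T1, where 28.2% and 29.0% of all tested genes were called lower. In each line 0 were called higher by edgeR, 0 at an unadjusted p under 0.05 and 0 by DESeq2. The subunits were not even: the mean FPKM of Cct5, the highest, was 3.85 times that of Cct3, the lowest, in EMT6 KO and 4.21 times in EMT6 control libraries, and 5.66 times in 4T1 KO and 6.15 times in 4T1 control libraries.

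Cct4 (ENSMUSG00000007739) had the largest decrease among subunits in EMT6. It stood at 74.8, 76.0 and 77.7 FPKM in EMT6 KO libraries, against 104, 115 and 123 FPKM in EMT6 control libraries, with the 3 KO libraries close together and below all controls (log2 change -0.58 ± 0.06, edgeR, adjusted p = 9.76e-07). The corresponding values in 4T1 were 96.7, 98.7 and 106 FPKM in 4T1 KO libraries, against 98.8, 92.3 and 104 FPKM in 4T1 control libraries, with overlapping groups and no call (-0.05 ± 0.05, edgeR, adjusted p = 0.364), and its sign turned with total-count scaling (0.03). The difference between the lines was -0.55 ± 0.08 (edgeR, adjusted p = 2.24e-06). Cct8 also fell more in EMT6, where it stood at 119, 122 and 123 FPKM in EMT6 KO libraries, against 154, 159 and 162 FPKM in EMT6 control libraries (-0.38 ± 0.05, edgeR, adjusted p = 1.08e-05). The 4T1 levels were 123, 121 and 125 FPKM in 4T1 KO libraries, against 132, 126 and 131 FPKM in 4T1 control libraries (-0.15 ± 0.04, edgeR, adjusted p = 0.00278), which was not called with total-count scaling (-0.07). The difference was -0.25 ± 0.06 (edgeR, adjusted p = 0.00103).

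Cct6a and Cct2 fell in 4T1 and were not called in EMT6. Cct6a stood at 178, 178 and 178 FPKM in EMT6 KO libraries, against 157, 172 and 165 FPKM in EMT6 control libraries, and was not called (0.11 ± 0.06, edgeR, adjusted p = 0.104) except as higher without control replicate 2 (0.15). 4T1 KO libraries held 139, 136 and 133 FPKM, against 179.7, 173 and 182 FPKM in 4T1 control libraries, with a clear gap between the groups (-0.47 ± 0.04, edgeR, adjusted p = 1.12e-09). The difference was 0.56 ± 0.07 (edgeR, adjusted p = 1.42e-07). Cct6a overlaps Psph on the other strand by 452 bases, and Psph held 13510 counts over the EMT6 libraries and 2839 over the 4T1 libraries. Cct2 stood at 230.5, 227 and 232 FPKM in EMT6 KO libraries, against 218, 225 and 228 FPKM in EMT6 control libraries and was not called (0.04 ± 0.05). For 4T1 the values were 216, 228 and 231 FPKM in 4T1 KO libraries, against 267, 252 and 273 FPKM in 4T1 control libraries (-0.31 ± 0.04, edgeR, adjusted p = 1.1e-06), and the difference was 0.33 ± 0.06 (edgeR, adjusted p = 9.95e-05).

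The other 4 subunits changed by at most 0.29 on the log2 scale. Cct5, the most abundant, stood at 235, 229.6 and 236 FPKM in EMT6 KO libraries, against 245, 270.4 and 267 FPKM in EMT6 control libraries and at 283, 281 and 301 FPKM in 4T1 KO libraries, against 338, 320.2 and 346 FPKM in 4T1 control libraries, and was called lower in both (-0.16 ± 0.06 in EMT6 and -0.29 ± 0.04 in 4T1). Tcp1 was called lower in both (-0.16 ± 0.05 in EMT6 and -0.15 ± 0.04 in 4T1), Cct7 in EMT6 alone by the test (-0.14 ± 0.05, against -0.08 ± 0.05 in 4T1), and Cct3 in 4T1 alone by the test (-0.17 ± 0.04, against -0.03 ± 0.06 in EMT6). For none of these 4 was the difference between the lines called by edgeR (unadjusted p from 0.075 to 0.606), though that of Cct3 was called without EMT6 control replicate 2 (0.18). The EMT6 calls of the small changes lay near the threshold (edgeR, adjusted p = 0.0272 for Cct5, 0.0367 for Cct7 and 0.018 for Tcp1). Cct5 was lost without control replicate 2 (-0.12) or KO replicate 1 (-0.16), 2 (-0.15) or 3 (-0.16), and Cct7 without control replicate 2 (-0.12) or KO replicate 1 (-0.13), 2 (-0.16) or 3 (-0.13). Tcp1 was lost without KO replicate 1 or 2 (-0.15 each), and none of these 3 EMT6 calls was made with no low-count filter (-0.12 for Cct5, -0.10 for Cct7 and -0.13 for Tcp1). In all, 2 to 5 subunits were called lower in EMT6 when a library was left out. In 4T1 Cct7 was called lower without control replicate 2 (-0.11) or KO replicate 3 (-0.13) and with no low-count filter (-0.11). With total-count scaling 3 of 8 subunits were called lower there, without Tcp1 (-0.07), Cct3 (-0.09) and Cct8.

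**Figure D4:**
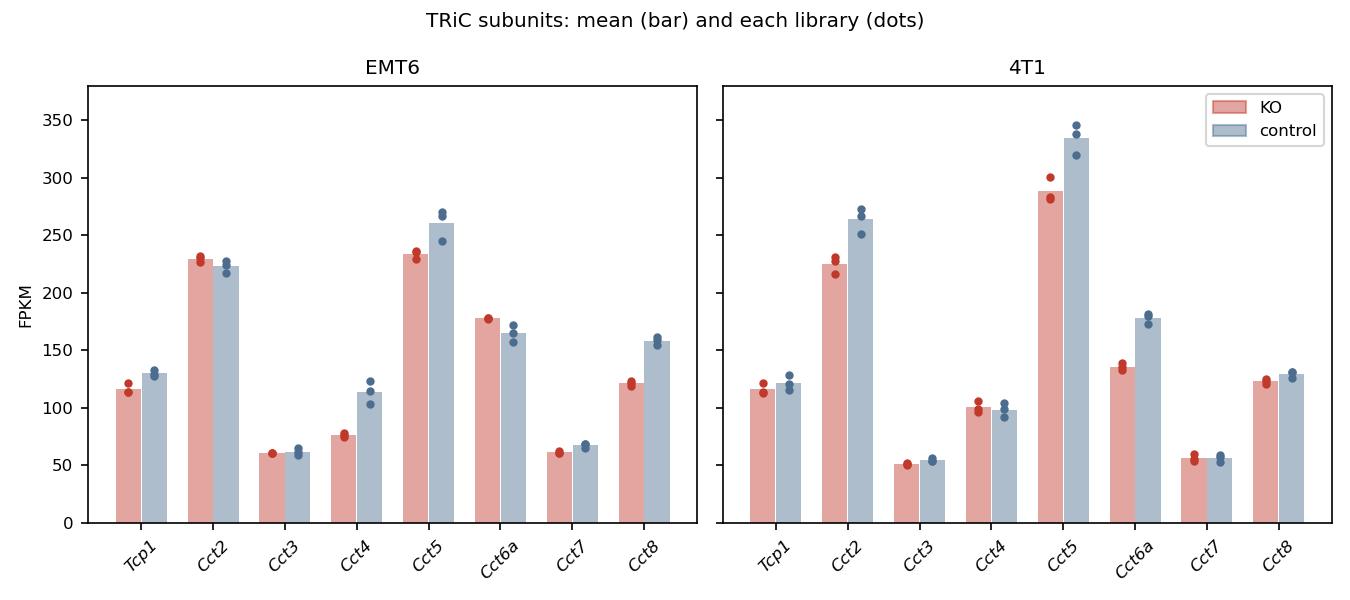
FPKM (y axis, from 0) of the 8 TRiC subunits in KO (red) and control (blue) libraries of EMT6 (left) and 4T1 (right), with bars at the mean of 3 libraries and dots for each library. Cct4 and Cct8 are lower in EMT6 KO, Cct2, Cct5 and Cct6a in 4T1 KO, and the order of subunits by level runs from Cct3 at the bottom to Cct5 at the top in all 4 groups.

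The heat shock factors themselves differed between the lines. Hsf1 (ENSMUSG00000022556), the main activator of the heat-inducible genes, stood at 9.60, 9.74 and 8.80 FPKM in EMT6 KO libraries, against 12.9, 12.1 and 12.3 FPKM in EMT6 control libraries, with no KO library reaching a control (log2 change -0.40 ± 0.06, edgeR, adjusted p = 4.28e-05). The corresponding values in 4T1 were 9.18, 9.02 and 9.04 FPKM in 4T1 KO libraries, against 7.28, 6.84 and 7.62 FPKM in 4T1 control libraries, with every KO library above every control (0.25 ± 0.06, edgeR, adjusted p = 0.00058). The difference was -0.67 ± 0.08 (edgeR, adjusted p = 2.43e-07). The message of Hsf1 stood lower in EMT6 KO cells, where 5 of 11 tested heat-inducible genes were called higher and 2 lower. It stood higher in 4T1 KO cells, where 1 of 10 was called higher and 4 lower. The inducible genes called in the same direction as Hsf1 were Hspb1 and Chordc1 in EMT6 and Hspa4l in 4T1. Whether these changes are linked was not tested. HSF1 is known to be regulated mainly as a protein, which was not measured.

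Hsf2, a second factor that can pair with HSF1, stood at 3.06, 2.96 and 3.15 FPKM in EMT6 KO libraries, against 2.69, 2.57 and 2.82 FPKM in EMT6 control libraries. The EMT6 groups did not overlap, but Hsf2 was not called (0.18 ± 0.08, edgeR, adjusted p = 0.0623) except without control replicate 3 (0.21). In 4T1 it stood at 3.97, 3.88 and 4.15 FPKM in 4T1 KO libraries, against 3.24, 2.76 and 3.33 FPKM in 4T1 control libraries and rose (0.29 ± 0.07, edgeR, adjusted p = 0.00188). The difference of -0.12 ± 0.11 was not called (edgeR, adjusted p = 0.32).

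Over the set, the KO effect differed between the lines for 18 of 30 tested genes, 13 with a higher value in EMT6 and 5 with a higher value in 4T1. Of all genes tested for it, 29.7% had a higher value in EMT6 and 30.2% a lower one (59.9% in all), so the share called is near the background while the split is not. The median difference was 0.17, against -0.01 over all genes. Of the heat-inducible genes 5 of 10 were called with a higher value in EMT6 and 1 with a lower one, and of the constitutive genes 8 of 18 and 3. Both comparisons enter this difference, and it is no further evidence for either. The share of all FPKM that the 32 genes took was 1.57% to 1.62% in EMT6 KO and 1.61% to 1.71% in EMT6 control libraries, which overlap, and 1.61% to 1.66% in 4T1 KO and 1.69% to 1.78% in 4T1 control libraries, which do not.

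A wider list of 60 genes of the chaperone network (other J proteins, Bag cochaperones, prefoldin, further Hsp90 partners, mitochondrial proteases and ubiquitin genes) gave 20 genes called higher and 14 lower of 60 tested in EMT6 (median 0.04), where 27.9% of all tested genes were called higher and 28.2% lower. In 4T1 it gave 13 higher and 28 lower of 58 (median -0.10), where 28.0% were called higher and 29.0% lower. In EMT6 the lowest adjusted p-values were those of Trap1, the mitochondrial Hsp90, with 44.0 ± 0.340 FPKM in EMT6 KO libraries and 72.7 ± 1.30 FPKM in EMT6 control libraries (SD, n = 3). Its log2 change was -0.72 ± 0.05 (edgeR, adjusted p = 7.8e-09). Next came Ppid, a cyclophilin of Hsp90 complexes (-0.59 ± 0.05, edgeR, adjusted p = 1.12e-07), the J protein Dnaja4 (-0.73 ± 0.08, edgeR, adjusted p = 1.08e-06) and Fkbp5 (FKBP51), the relative and counterpart of Fkbp4, which rose (0.50 ± 0.06, edgeR, adjusted p = 2.11e-06). In 4T1 they were Dnajc2, a J protein of ribosomes (-0.67 ± 0.05, edgeR, adjusted p = 4.47e-11), Dnajc7 (-0.57 ± 0.05, edgeR, adjusted p = 6.25e-10), Txndc9, a partner of TRiC (-0.59 ± 0.05, edgeR, adjusted p = 7.84e-10), and Dnajb14, a J protein of the ER membrane, which rose (0.72 ± 0.07, edgeR, adjusted p = 5.09e-09). Trap1, Ppid and Dnaja4 were also called lower in 4T1 (-0.47 ± 0.05, -0.25 ± 0.05 and -0.44 ± 0.09).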

How the data were processed

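Per the submitters' processing notes, reads were handled with HISAT2 2.2.1, cutadapt 1.9.1, HTSeq 0.6.1 and DESeq2 on the genome GRCm38. The gene coordinates deposited with the counts do not match that build, for example at Hspa1b, and which build they use is not stated. The sources used here do not give each tool's role, the strand setting or how multi-matching reads were counted. Per the file headers, the deposited table of each line holds raw read counts per gene and FPKM, counts scaled by exonic length and library total by the authors. FPKM recomputed from counts, totals and exonic sizes differed by at most 0.005 at each of the 340146 values per line.

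Counts were fitted in R 4.3.3 with edgeR 4.0.16 on the whole table of each line (filterByExpr, TMM scaling, robust quasi-likelihood test, 2-sided). P-values were adjusted by Benjamini-Hochberg over all tested genes and called under 0.05. Low-count filtering left 12890 genes in EMT6 and 13313 in 4T1. Changes are log2(KO over control) with the fit's standard error, and FPKM values are per library or mean ± SD. Differences of the KO effect between lines are the interaction term of a 12-library fit of the 12006 genes kept in both. Tested on simulated counts with 100 genes changed by each fold, the EMT6 fit of 12890 genes recovered 78% of genes changed 1.5-fold and 94% of those changed 2-fold, and the 4T1 fit of 13313 genes 85% and 93%. In the data 56.0% of genes were called in EMT6 and 57.0% in 4T1, and many member changes were smaller than 1.5-fold. The recovered shares therefore do not describe the calls given here. The biological coefficient of variation was 6.73% in EMT6 and 4.82% in 4T1. Chi-square per degree of freedom between libraries of a group was 2.45 to 11.8, and no 2 libraries were identical.

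The members, the wider list and the marker lists were chosen with earlier results of these data known. All members are given by role, with values in every library for those changed by at least 0.5 on the log2 scale and called, called in opposite directions or called in the interaction, and for Hsf1 and Hsf2. Values of some further members are given as well. Of the wider list, the 4 called genes per line with a mean of at least 1 FPKM and the lowest adjusted p are named. The alternatives were DESeq2 1.42.0, its size factors in edgeR, total-count scaling, no low-count filter, the replicate number as a block, summed counts of Hspa1a and Hspa1b, and each library left out in turn. Shared sequence was measured on GENCODE M21 transcripts.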

Additional observations from a re-analysis of the deposited data

Results flagged for a closer look

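For 18 genes the KO effect differed between EMT6 and 4T1 by the interaction test in edgeR. Values are the log2 change of KO over control in EMT6 minus that in 4T1. The adjusted p-values, per-library values and the libraries without which some calls are lost are given with each gene above. Of 12006 genes tested for it 59.9% differed.

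Among heat-inducible genes the difference was 1.45 for Hspa1b, 0.87 for Dnaja1, 0.30 for Hsph1, 0.27 for Hsp90aa1 and 0.23 for Hspb8, and -0.65 for Hspa4l. For Hsf1 it was -0.67. Dnaja1 rose in EMT6 and fell in 4T1, and Hsf1 did the reverse.

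Among Hsp70 and Hsp90 genes and cochaperones of the constitutive class it was 0.18 for Hspa4, 0.21 for Hsp90ab1, 0.55 for Ahsa1, 0.20 for Fkbp4 and 0.26 for Ptges3. For the mitochondrial chaperones it was 0.39 for Hspe1 and -0.22 for Hspa9. For TRiC subunits it was 0.56 for Cct6a, 0.33 for Cct2, -0.55 for Cct4 and -0.25 for Cct8, so that subunits of 1 complex differed in both directions.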

How the results depend on the processing

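Of the calls among members, 11 of 17 in EMT6, 17 of 22 in 4T1 and 13 of 18 of the interaction were kept under every alternative run. With total-count scaling, 4T1 had 6 members called higher, 3 of them heat-inducible and 1 constitutive, and the interaction had 5 constitutive genes called higher. With no low-count filter, 5 constitutive genes were called lower in EMT6, and 2 heat-inducible genes had a lower value in the interaction. With a library left out, EMT6 had 4 to 9 members called higher (4 to 6 inducible, 0 to 3 constitutive) and 8 to 12 lower (2 to 3 inducible, 5 to 8 constitutive). In 4T1 3 to 4 were called higher (1 to 2 inducible) and 18 to 20 lower (14 to 16 constitutive), with 2 inducible genes higher only without control replicate 3, and in the interaction 10 to 17 had a higher value and 4 to 5 a lower one.

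Members that were not called changed sign around 0. With no low-count filter they were Dnajb1 in 4T1 (-0.0053), Hspa8 (0.0123), Hsph1 (0.0096) and Cct3 (0.0083) in EMT6, and Tcp1 (0.0048) and Stip1 (0.0382) in the interaction. With total-count scaling they were Hspb8 (0.0262) and Cct4 (0.0304) in 4T1. Stip1 stood at 0.0002 in the interaction with DESeq2 or its size factors, and at 0.0014 with the block. With each library left out in turn, the ranges across 0 were -0.0082 to 0.0547 for Dnajb1 in 4T1. In EMT6 they were -0.1276 to 0.0924 for Hspa8, -0.0086 to 0.1317 for Stip1, -0.0299 to 0.0381 for Fkbp4 and -0.0673 to 0.0192 for Cct3, and for Stip1 in the interaction -0.0674 to 0.0702. The cause was not tested.

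Libraries of KO and control with the same number did not deviate together (correlation -0.130 to -0.007 in EMT6 and -0.023 to 0.009 in 4T1), so the number pairs nothing by the labels or the data. With the replicate number as a block, EMT6 had 6 members called higher and 9 lower, 4T1 had 3 and 19, and 3 TRiC subunits were called lower in EMT6. In the interaction the block brought a call for Hspa8 (0.24) and ended that of Hspa9 (-0.22), and in EMT6 it ended those of Cct5 (-0.16) and Cct7 (-0.14). At these depths Hspa1a, and Hspb1 in 4T1, could not be tested.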

Other observations

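Sets of the wider network by role, chosen after their values were seen, are given as values. Of 5 genes of the Bag family, 2 were called higher and 1 lower in EMT6, and 4 were called lower in 4T1. Over all tested genes, 27.9% were called higher and 28.2% lower in EMT6, and 28.0% higher and 29.0% lower in 4T1, so that 3 of 5 called in EMT6 is near the 56.0% of all genes called there. Bag1 stood at 88.2, 85.9 and 87.8 FPKM in EMT6 KO libraries, against 62.2, 66.2 and 62.2 FPKM in EMT6 control libraries, and at 80.3, 79.4 and 81.1 FPKM in 4T1 KO libraries, against 87.9, 78.5 and 87.1 FPKM in 4T1 control libraries, so that it was higher in every EMT6 KO library. It was called higher in EMT6 (0.46 ± 0.06, edgeR, adjusted p = 4.38e-06) and lower in 4T1 (-0.15 ± 0.05, edgeR, adjusted p = 0.0105), where the groups overlap. Bag2 was called lower in 4T1 (-0.54 ± 0.06, edgeR, adjusted p = 1.01e-07) and not in EMT6 (-0.04 ± 0.07). The KO effect in EMT6 minus that in 4T1 was 0.48 ± 0.09 for Bag2 (edgeR, adjusted p = 0.000106). It was 0.59 ± 0.07 for Bag1 (edgeR, adjusted p = 3.02e-07), 0.32 for Bag5, 0.19 for Bag6 and -0.36 for Bag4. Each was called, where 59.9% of all tested genes were.

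Of the 6 subunits of prefoldin, which hands actin and tubulin to TRiC, 2 were called higher in EMT6, and 1 higher and 2 lower in 4T1, where the same shares of all genes apply. Vbp1 was called higher in both (0.25 ± 0.08 in EMT6 and 0.46 ± 0.06 in 4T1). Pfdn1 and Pfdn2 were called lower in 4T1 (-0.34 ± 0.06 and -0.44 ± 0.06). Cryab, a small heat shock protein of the crystallin family, stood at 4.31, 5.56 and 5.41 FPKM in 4T1 KO libraries, against 3.22, 2.08 and 2.66 FPKM in 4T1 control libraries, higher in every KO library (0.86 ± 0.17, edgeR, adjusted p = 0.000157). In EMT6 it stood at 80.5, 71.3 and 77.7 FPKM in EMT6 KO libraries, against 75.0, 79.3 and 67.3 FPKM in EMT6 control libraries and was not called. The difference between the lines was -0.82 ± 0.17 for Cryab (edgeR, adjusted p = 0.000289).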
